A study of Mus musculus with 6 samples.

Results

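The genes described here encode enzymes that make or use glutamine, glutamate, alanine and asparagine. They were chosen by name from a list of 9 genes (Glul, Gls2, Glud1, Got1, Got2, Gpt, Gpt2, Asns and Oat), through probe sets that the array's annotation pairs with exactly 1 gene symbol. Of the 9, 8 were measured, by 10 probe sets, among the 16797 genes and 18197 probe sets tested. The annotation pairs no probe set with Gls2, the liver-type glutaminase, which is not analysed here. Total RNA of NIH3T3 cells, an immortalized line of mouse embryonic fibroblasts used as Normal cells in the study, was measured on 6 Affymetrix arrays. Of these, 3 were of cells treated with forskolin (FSK), which activates adenylate cyclase and so raises cAMP and activates PKA (NF), and 3 of cells without FSK (N), whose labels name no vehicle. In the study's general treatment scheme, cells without FSK received DMSO. Both groups were plated in 25 mM glucose and moved after 16 h to medium that began at 1 mM glucose, with collection 72 h after that change. In NF, 10 μM FSK was added 24 h and 48 h after it. The medium contained glutamine and no pyruvate, per the study's methods. Arrays of a group are labelled biological replicates, all of this single cell line.

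Glutamine carries nitrogen for the synthesis of other molecules, and glutamate is the hub that gives or takes that nitrogen. Glutamine synthetase (Glul) makes glutamine from glutamate and ammonia, while glutaminases run the opposite way. The alanine aminotransferases (Gpt in the cytosol, Gpt2 in mitochondria) and the aspartate aminotransferases (Got1 in the cytosol, Got2 in mitochondria) move the amino group of glutamate to pyruvate or oxaloacetate. Glutamate dehydrogenase (Glud1) frees it as ammonia, and ornithine aminotransferase (Oat) links ornithine to glutamate and proline. Asparagine synthetase (Asns) takes the amide nitrogen of glutamine to make asparagine, and is known as a gene that the transcription factor ATF4 induces when amino acids are scarce or the ER is stressed. In these cells the question was how such genes differ with FSK when glucose has run low.

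All values are RMA expression values on the log2 scale, and a log2 change is the NF mean minus the N mean. FSK treatment was accompanied by a higher level of Glul and lower levels of Gpt2 and Asns. With limma and Benjamini-Hochberg adjustment over all 18197 probe sets, 1 of the 8 genes rose, 2 fell and 5 did not pass at an adjusted p under 0.05. Over all genes tested, 1.83% rose and 0.72% fell. Together, 2.55% of all genes passed. The NF arrays lay entirely above the N arrays for 2 of the 8 genes and entirely below for 3, where 10.5% and 9.7% of all genes did so, or 20.2% in either direction. The median log2 change was -0.15 over the 8 genes and -0.03 over all genes, and 4 of the 8 had a higher mean in NF. With 3 arrays in a group, precision is limited by their number.

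N replicate 1 stood apart from the other N arrays over the whole table. Over 5189 probe sets with a mean log2 value between 5 and 8, each array was set against the mean of the other arrays of its group. The median difference lay between -0.05 and 0.04 for the NF arrays, against -0.49, 0.13 and 0.36 for N replicates 1 to 3. The SD over all probe sets was 2.58 to 2.60 in the NF arrays, against 2.42, 2.58 and 2.62 in N replicates 1 to 3. Of 9 measured fibroblast markers none was dim, that is, below 3.70 on the log2 scale, the median of the probe sets tested. Their mean log2 level was 9.31 to 9.52 in NF and 8.74 to 9.30 in N. Of 7 hepatocyte markers, 7 were dim, with a mean log2 level of 2.92 to 2.99 in NF and 2.86 to 3.08 in N. Likewise dim were 5 of 6 epithelial markers, at 3.00 to 3.11 in NF and 3.05 to 3.32 in N, and 5 of 5 markers of blood and endothelial cells, at 2.89 to 3.09 in NF and 2.92 to 3.12 in N. In such bulk RNA, fewer cells with a transcript and less transcript per cell cannot be told apart.

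**Figure D1:**
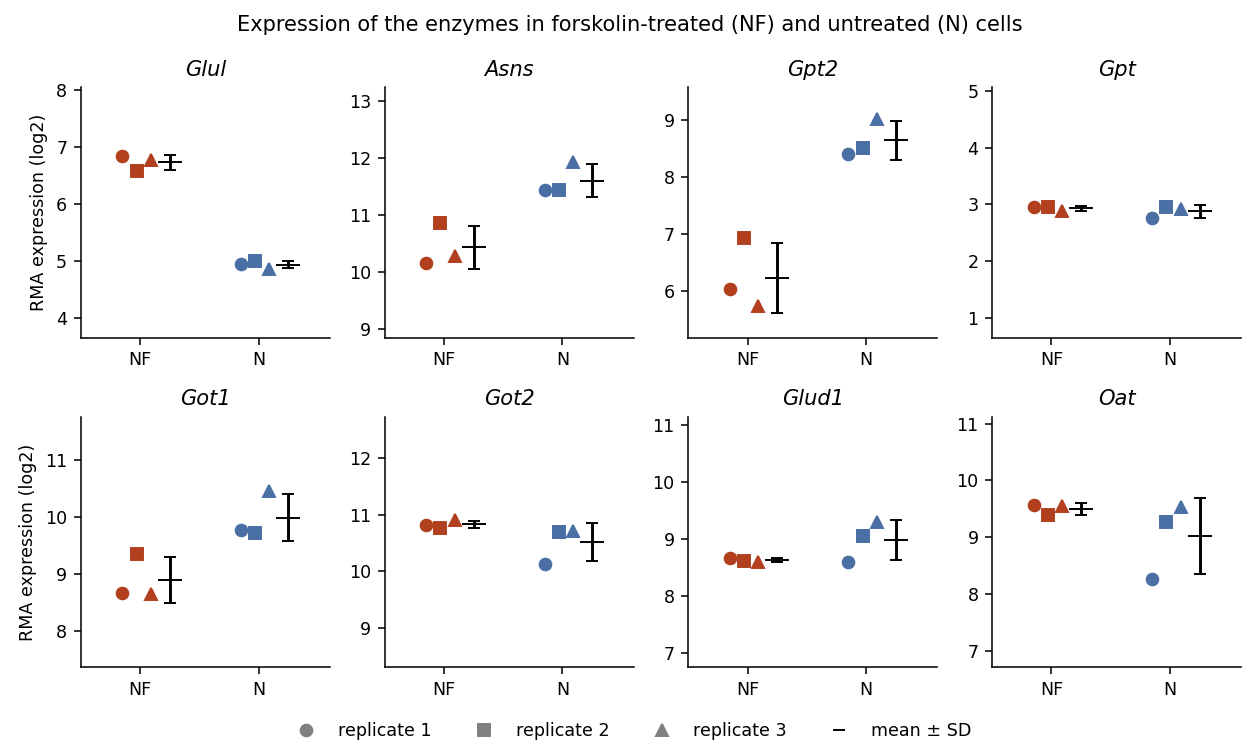
RMA expression (log2, vertical axis) of the 8 measured enzymes in FSK-treated (NF, left) and untreated (N, right) Normal cells, one point per array with its replicate number as the symbol, and the mean ± SD of each group as a bar beside the points. Each panel spans the same number of log2 units. Glul lies higher in every NF array, while Gpt2, Asns and Got1 lie lower in every NF array, and N replicate 1 is the lowest N array for Oat and Got2.

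The promoters of the 4 enzymes with the greatest changes are shown to set their sequence beside their direction. Each window holds 250 bases before and 50 bases after the start site that RefSeq gives on GRCm38.p6, written along the gene's own strand from 5′ to 3′. Capitals mark matches to TGATGNAA, the core of the C/EBP-ATF response element known from the Asns gene, and to TGACG, a shorter stretch of the cAMP response element, each searched on both strands. These motifs do not overlap each other in the windows below. The window of Asns lies at chr6:7693160-7693459 on the minus strand and that of Got1 at chr19:43524556-43524855 on the minus strand. The window of Gpt2 lies at chr8:85492326-85492625 on the plus strand and that of Glul at chr1:153899679-153899978 on the plus strand.
Asns: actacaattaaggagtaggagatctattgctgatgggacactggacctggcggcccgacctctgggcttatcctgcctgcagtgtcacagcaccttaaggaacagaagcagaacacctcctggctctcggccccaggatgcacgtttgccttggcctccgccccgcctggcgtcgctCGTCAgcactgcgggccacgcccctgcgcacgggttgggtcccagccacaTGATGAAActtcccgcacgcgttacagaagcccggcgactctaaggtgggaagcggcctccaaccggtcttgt
Got1: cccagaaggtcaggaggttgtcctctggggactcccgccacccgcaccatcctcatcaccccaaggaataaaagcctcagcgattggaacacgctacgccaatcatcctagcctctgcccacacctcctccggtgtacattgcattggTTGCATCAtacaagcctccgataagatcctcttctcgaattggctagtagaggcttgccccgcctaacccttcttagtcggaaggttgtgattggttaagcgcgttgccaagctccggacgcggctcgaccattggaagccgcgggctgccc
Gpt2: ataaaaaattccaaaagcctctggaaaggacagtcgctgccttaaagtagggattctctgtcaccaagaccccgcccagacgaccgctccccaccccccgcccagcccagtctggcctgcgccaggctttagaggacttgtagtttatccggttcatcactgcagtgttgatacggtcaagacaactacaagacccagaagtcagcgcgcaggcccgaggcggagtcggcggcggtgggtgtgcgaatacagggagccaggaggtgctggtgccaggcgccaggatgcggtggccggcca
Glul: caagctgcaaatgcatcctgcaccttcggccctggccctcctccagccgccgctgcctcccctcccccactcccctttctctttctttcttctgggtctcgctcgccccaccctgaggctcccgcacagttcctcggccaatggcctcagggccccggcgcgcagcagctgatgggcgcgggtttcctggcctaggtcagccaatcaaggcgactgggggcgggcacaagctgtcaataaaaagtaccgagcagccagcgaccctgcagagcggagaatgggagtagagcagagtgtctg

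In the Asns window the C/EBP-ATF core reads TGATGAAA, from 23 to 16 bases before the start site, and TGACG lies on the opposite strand 73 to 69 bases before it. In the Got1 window a core that reads TGATGCAA lies on the opposite strand, 102 to 95 bases before the start. The Gpt2 and Glul windows hold neither set of letters, which says nothing about sites elsewhere. RefSeq's table had a window for 7 of the 9 genes, all but Gpt and Gls2. The core was found in 2 of these 7, Asns and Got1, in 5 of 23 windows of amino acid response genes and in 3.97% of all 32851 windows. TGACG was found in Asns and Oat among the 7, and in 20.8% of all windows. The full cAMP response element, TGACGTCA, was in 0 of the 7 windows and in 1.79% of all. A match is a string of letters and was not tested as a binding site.

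Glul, the enzyme that makes glutamine, was the member that rose. Probe set 10374453 measured it at 6.840, 6.587 and 6.787 in NF replicates 1 to 3, against 4.946, 4.998 and 4.871 in N replicates 1 to 3. The lowest NF array thus lay well above the highest N array, and the arrays of each group lay close together. The mean was 6.74 ± 0.13 in NF and 4.94 ± 0.06 in N (SD, n = 3 each), a log2 change of 1.80 (standard error 0.13, 95% interval 1.51 to 2.09) or 3.48-fold, with an adjusted p = 0.00545 from limma. By size of log2 change it stood at place 37 from the top among 16797 genes. A second probe set, 10350753, gave 6.08, 6.29 and 6.47 in NF replicates 1 to 3, against 4.71, 4.65 and 4.34 in N replicates 1 to 3. Its log2 change was 1.72 (standard error 0.16, adjusted p = 0.00649 from limma), so both probe sets of Glul gave nearly the same size of change. They share 3 annotated transcripts, yet they do not sit alike in the array's numbering. Of the 20 probe sets nearest in number to 10350753, 18 name genes of the chromosome that carries Glul. For 10374453 none of the 20 does, and all 20 name genes of 1 other chromosome. Whether 10374453 also binds transcripts of a related copy was not tested. Glul kept its call without N replicate 1 (log2 change 1.80, adjusted p = 0.000756 from limma). It missed the threshold without NF replicate 1 (adjusted p = 0.0583) and without NF replicate 3 (adjusted p = 0.0607), at log2 changes of 1.75 and 1.78. In those fits 1 and 2 genes of the whole table were called higher.

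Asns, which makes asparagine from aspartate and glutamine, fell. Its level was 10.15, 10.85 and 10.29 in NF replicates 1 to 3, against 11.43, 11.44 and 11.94 in N replicates 1 to 3. NF replicate 2 was the highest NF array and N replicate 3 the highest N array, and the groups did not overlap. The mean was 10.43 ± 0.37 in NF and 11.60 ± 0.29 in N (SD, n = 3 each). This is a log2 change of -1.17 (standard error 0.22, 95% interval -1.68 to -0.66), that is 2.25-fold lower in NF, with an adjusted p = 0.0403 from limma. The call lay close to the threshold and was lost without NF replicate 1 (adjusted p = 0.216), NF replicate 3 (0.223), N replicate 2 (0.0743) or N replicate 3 (0.0983). In the fits without NF replicate 1 or NF replicate 3, 0 genes of the whole table were called lower. Without N replicate 1 the log2 change of Asns was -1.25 (adjusted p = 0.0166 from limma).

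Gpt2, the mitochondrial alanine aminotransferase, showed the greatest fall of the 8 genes, and only 6 of all 16797 genes had a more negative log2 change. The level was 6.04, 6.92 and 5.72 in NF replicates 1 to 3, against 8.39, 8.50 and 9.02 in N replicates 1 to 3. As for Asns, NF replicate 2 was the highest NF array and N replicate 3 the highest N array. The mean was 6.23 ± 0.62 in NF and 8.64 ± 0.34 in N (SD, n = 3 each), a log2 change of -2.41 (standard error 0.31, 95% interval -3.12 to -1.70) or 5.32-fold lower in NF, with an adjusted p = 0.0126 from limma. Without NF replicate 1 the adjusted p was 0.0905 and without NF replicate 3 it was 0.0918. In both of those fits 0 genes of the whole table were called lower. The call of Gpt2 held with any other single array left out. Its cytosolic counterpart Gpt was dim in both groups, at 2.96, 2.96 and 2.88 in NF replicates 1 to 3, against 2.75, 2.96 and 2.93 in N replicates 1 to 3. The groups overlapped and the log2 change was 0.05 (95% interval -0.23 to 0.34, adjusted p = 0.904 from limma), a value that turns to -0.01 without N replicate 1.

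Got1, the cytosolic aspartate aminotransferase, was lower in each NF array than in any N array but missed the threshold. The level was 8.67, 9.35 and 8.65 in NF replicates 1 to 3, against 9.78, 9.73 and 10.46 in N replicates 1 to 3. NF replicate 2 and N replicate 3 again were the highest arrays of their groups. The log2 change was -1.10 (standard error 0.26, 95% interval -1.69 to -0.50, 2.14-fold lower in NF) with an adjusted p = 0.0799 from limma. Without N replicate 1 it was -1.20 and passed (adjusted p = 0.0350 from limma), and it also passed once the arrays were quantile normalized again (-1.12, adjusted p = 0.0288 from limma). It stayed short of the threshold without NF replicate 1 (adjusted p = 0.348), NF replicate 3 (0.360), NF replicate 2 (0.0618), N replicate 2 (0.107) or N replicate 3 (0.162).

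Got2, the mitochondrial counterpart, was measured by probe set 10580969 at 10.82, 10.77 and 10.90 in NF replicates 1 to 3, against 10.13, 10.69 and 10.72 in N replicates 1 to 3. The groups did not overlap, but NF lay just above N replicates 2 and 3, and N replicate 1 was far below them. The log2 change was 0.31 (95% interval -0.10 to 0.73, adjusted p = 0.526 from limma), and without N replicate 1 it was 0.12 (95% interval -0.15 to 0.39). The second probe set, 10535025, shares all 5 annotated transcripts with the first and gave a log2 change of 0.34. None of its 20 nearest probe sets names a gene of the chromosome that carries Got2, while 20 of 20 do so for 10580969. The change of Got1 minus that of Got2 was -1.41 on the log2 scale, with no overlap between NF and N arrays. The exact two-sided permutation p was 0.1 (0.1 also when adjusted over 2 pairs of isoenzymes, which were set up after their values were seen), the smallest that 3 arrays against 3 allow. The other pair was Gpt2 and Gpt, for which no difference is given since Gpt was dim on all arrays.

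Glud1, which interconverts glutamate and 2-oxoglutarate, stood at 8.67, 8.62 and 8.61 in NF replicates 1 to 3, against 8.60, 9.05 and 9.29 in N replicates 1 to 3. The NF arrays were nearly identical, and N replicate 1 lay below them while the other N arrays lay above. The log2 change of -0.35 did not pass (95% interval -0.77 to 0.08, adjusted p = 0.487 from limma). Without N replicate 1 it was -0.54 and passed (adjusted p = 0.0480 from limma), and it missed again when NF replicate 2 was left out as well (adjusted p = 0.0907).

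Oat, which links ornithine to glutamate and proline, had 9.57, 9.39 and 9.54 in NF replicates 1 to 3, against 8.26, 9.27 and 9.54 in N replicates 1 to 3. The groups overlapped, since N replicate 3 was as high as the NF arrays. Its log2 change was 0.48 (95% interval -0.22 to 1.17, adjusted p = 0.574 from limma) with all arrays and 0.09 (95% interval -0.21 to 0.40) without N replicate 1. For Glud1, Got2 and Oat the whole-table shift of N replicate 1 thus moves with the result, and its part in the values with all arrays was not tested.

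**Figure D2:**
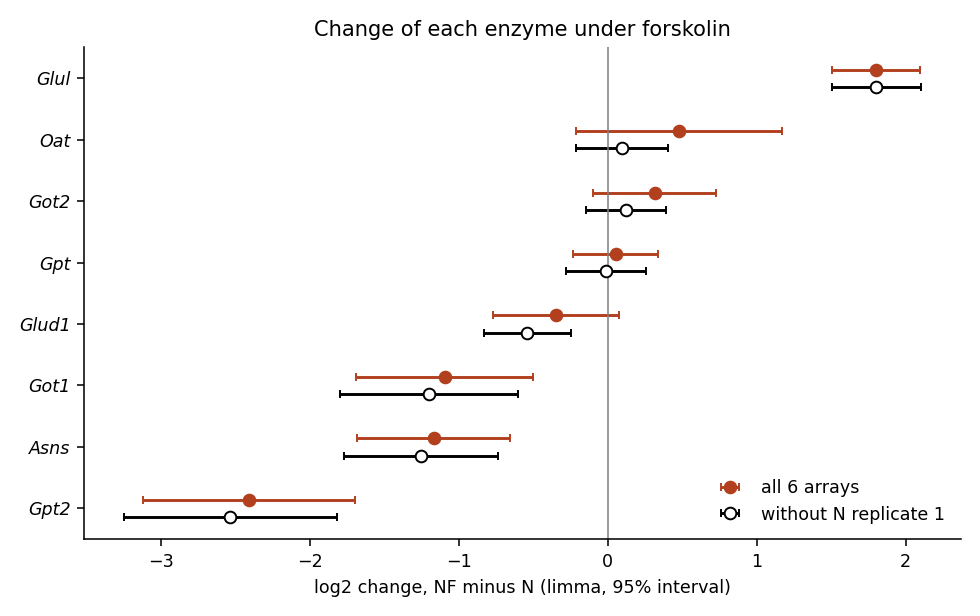
Log2 change, NF minus N (horizontal axis), of each enzyme with its 95% interval from limma, with all 6 arrays (filled) and without N replicate 1 (open). Glul lies at 1.80 in both, Gpt2 at -2.41 and -2.53, and Oat and Got2 draw closer to 0 without that array.

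Genes whose pattern over the 6 arrays was most like that of a member were found by the mean absolute difference between the log2 deviations of both genes from their own means. This is a description over arrays that hold both groups, so a gene of similar change ranks high. For Asns the nearest were Gars, which charges tRNA with glycine, at a mean difference of 0.0417 log2, Dennd4a at 0.0693 and Phgdh, the first enzyme of serine synthesis, at 0.0757, where the median over all genes was 0.579. For Gpt2 they were Chac1, which degrades glutathione (0.185), Herpud1, which acts in the degradation of ER proteins (0.201), and Slc7a5, which carries leucine and other large amino acids (0.221), with a median of 1.19 over all genes. For Glul they were Tnfaip6, a secreted protein that binds hyaluronan (0.0902), Ckap2l, a protein of the mitotic spindle (0.0974), and Plod2, which hydroxylates lysines of collagen (0.100), with a median of 0.913.

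Neighbouring genes were grouped in 8 lists by their place in the pathway, which together held 99 measured genes besides the members. Of these, 0 rose and 11 fell by limma (34 had an unadjusted p under 0.05 by limma and 28 by the methods' t-test, where these counts over all 16797 genes were 2322 and 1861), and their median log2 change was -0.10, against -0.03 over all genes. Leaving out N replicate 1 gave 23 that fell, leaving out NF replicate 2 gave 18, and leaving out both gave 28. With N replicate 2 omitted 5 fell, and with N replicate 3 omitted 4. With NF replicate 1 or NF replicate 3 omitted 0 fell, where limma gave 27 and 26 lower at an unadjusted p under 0.05. Over all 16797 genes, 121 fell with all arrays, 430 without N replicate 1, 90 without NF replicate 2 and 497 without both. Of all genes, 77 fell without N replicate 2 and 34 without N replicate 3. Without NF replicate 1 or NF replicate 3, 0 of all genes fell (541 and 606 at an unadjusted p under 0.05 by limma).

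Among 17 transporters of glutamine, glutamate, alanine and asparagine, 2 fell and 15 did not pass. With NF replicate 1 or NF replicate 3 omitted 0 fell, with N replicate 2 or N replicate 3 omitted 1, with NF replicate 2 omitted 3 and with N replicate 1 omitted 5. These counts are to be read against those over all genes with the same arrays omitted, given above. Slc1a5, which carries glutamine and other neutral amino acids into cells, was 8.05, 8.28 and 8.36 in NF replicates 1 to 3, against 9.56, 9.26 and 9.66 in N replicates 1 to 3. Each NF array was well below each N array, with a log2 change of -1.26 (adjusted p = 0.0116 from limma). Slc7a5 fell by 2.15 on the log2 scale (adjusted p = 0.0287). Slc7a11, the cystine and glutamate exchanger, had a log2 change of -2.60 (adjusted p = 0.0519) and Slc1a4, a carrier of alanine and serine, one of -0.92 (adjusted p = 0.0930), and neither passed. The median of this list was -0.03, equal to that of all genes.

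Of 10 genes of asparagine and aspartate metabolism, 1 fell and 9 did not pass (median log2 change -0.14). Nars, which charges tRNA with asparagine, fell by 1.32 on the log2 scale (adjusted p = 0.0360 from limma), beside the fall of Asns. This call was lost when NF replicate 1, NF replicate 3 or N replicate 3 was omitted. Adss, which uses aspartate to make AMP, had a log2 change of -0.87 (adjusted p = 0.117), Nars2, the mitochondrial counterpart of Nars, one of -0.37 and Adssl1 one of -0.31. Adssl1 was among the 4 of these 10 genes that were dim, below 3.70.

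The counts at an unadjusted p in the following lists are to be read against those 2322 and 1861 of 16797 genes. Of 9 other aminotransferases 0 passed (1 at an unadjusted p under 0.05 by limma and 1 by the methods' t-test). Bcat1, which moves the amino group of branched-chain amino acids to 2-oxoglutarate, had a log2 change of -0.96 (adjusted p = 0.0615). That of Psat1, which uses glutamate in serine synthesis, was -0.38, that of Kyat3 0.35 and that of Aadat -0.12. Aadat was among the 6 of these 9 genes that were dim, below 3.70. Of 8 genes of proline and ornithine metabolism 0 passed (1 at an unadjusted p under 0.05 by limma and 1 by the methods' t-test). Their lowest p belonged to Aldh18a1, which starts proline synthesis from glutamate, with a log2 change of -1.26 (adjusted p = 0.0647), and those of Odc1, Pycrl and Arg1 were -0.31, -0.23 and -0.18. In this list 4 of the 8 genes were dim, Arg1 among them.

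Users of glutamine nitrogen and of glutamate carbon likewise held no call. Of 8 amidotransferases 0 passed (1 at an unadjusted p under 0.05 by limma and 1 by the methods' t-test). Ctps2, which makes CTP with the amide of glutamine, had a log2 change of 0.73 (adjusted p = 0.0869), Gfpt1, which starts the hexosamine pathway, one of 0.30, Pfas one of 0.34 and Ctps one of 0.42. Of 9 genes that lead from glutamate to GABA and glutathione or turn these over, with the gene for N-acetylglutamate synthase, 0 passed (2 at an unadjusted p under 0.05 by limma and 1 by the methods' t-test). The log2 change of Gclm, a subunit of the enzyme that starts glutathione synthesis, was -0.68. Those of Aldh5a1, Gad1 and Gad2 were 0.49, -0.26 and -0.24. These last were among the 5 of the 9 genes that were dim, below 3.70. Of 15 genes of 2-oxoglutarate metabolism and the malate-aspartate shuttle, in which Got1 and Got2 take part, 0 passed (3 at an unadjusted p under 0.05 by limma and 2 by the methods' t-test), and 12 had a higher mean in NF (median log2 change 0.28). Ogdh, of the 2-oxoglutarate dehydrogenase complex, had a log2 change of 0.61 (adjusted p = 0.140), Dld of the same complex one of -0.54, Slc25a11, the 2-oxoglutarate and malate carrier, one of 0.55 and Idh2 one of 0.47. Relative to each gene's own mean, this list averaged 0.11 to 0.13 in the NF arrays, against -0.60, 0.05 and 0.17 in N replicates 1 to 3, and the part of N replicate 1 in its median was not tested.

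**Figure D3:**
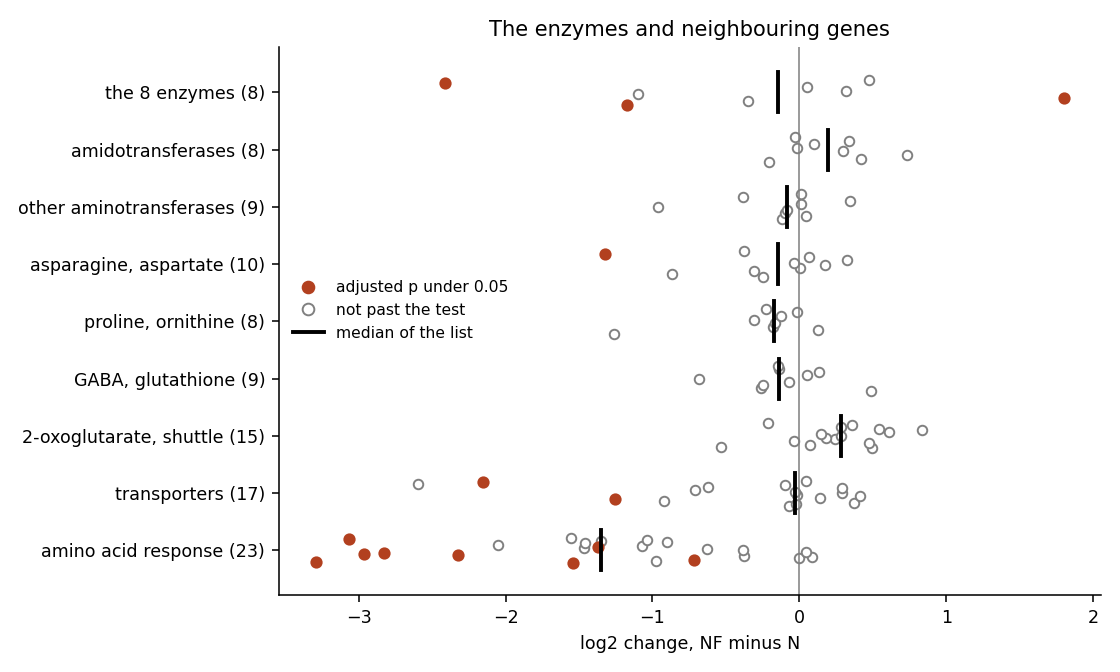
Log2 change, NF minus N (horizontal axis), of the 8 enzymes and of the measured genes of 8 neighbouring lists (number of genes in brackets), with genes at an adjusted p under 0.05 filled and the median of each list as a black bar. Within the enzymes 1 filled point lies to the right and 2 to the left, while the amino acid response list has its median at -1.35 and 8 filled points to the left.

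The amino acid response list, mostly of genes known to be induced when amino acids are scarce or the ER is stressed, was the lowest of the 8. Of its 23 measured genes, 0 rose, 8 fell and 15 did not pass (18 at an unadjusted p under 0.05 by limma and 15 by the methods' t-test), with a median log2 change of -1.35. Nupr1, a small stress-induced chromatin protein, fell by 1.37 on the log2 scale (adjusted p = 0.00925 from limma), Atf3, a stress-induced transcription factor, by 3.29, Cth, which makes cysteine, by 2.96 and Aldh1l2, a mitochondrial enzyme of folate metabolism, by 1.54. Atf4 itself had a log2 change of -0.98 (adjusted p = 0.0869), with 7.96, 8.91 and 8.27 in NF replicates 1 to 3, against 9.27, 9.24 and 9.55 in N replicates 1 to 3. Leaving out N replicate 1 gave 15 that fell, leaving out NF replicate 2 gave 13, and leaving out both gave 18. With N replicate 2 or N replicate 3 omitted 3 fell, and with NF replicate 1 or NF replicate 3 omitted 0. Here too the counts over all genes with the same arrays omitted are the measure. Of all genes, 121 fell with all arrays, 430 without N replicate 1, 90 without NF replicate 2 and 497 without both. Without N replicate 2 or N replicate 3, 77 and 34 of all genes fell, and without NF replicate 1 or NF replicate 3, 0. That such stress genes were lower in NF was known from earlier results of these data when the list was written, so it adds no separate evidence.

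The amino acid response genes and the lower enzymes varied among the arrays of a group in a like way. As a deviation from each gene's own 6-array mean, the amino acid response list averaged -1.01, -0.07 and -0.96 in NF replicates 1 to 3, against 0.38, 0.60 and 1.05 in N replicates 1 to 3. Asns deviated by -0.86, -0.16 and -0.73 in NF replicates 1 to 3, against 0.42, 0.42 and 0.92 in N replicates 1 to 3. Gpt2 deviated by -1.39, -0.52 and -1.71 in NF replicates 1 to 3, against 0.96, 1.07 and 1.59 in N replicates 1 to 3. In Asns, Gpt2 and the list, NF replicate 2 was the NF array nearest to N, and N replicate 3 the array farthest from NF. N replicate 3 was also the highest array on average in every other list, such as the transporters (0.36). NF replicate 2 was likewise the highest NF array on average in all lists but the amidotransferases. This order was thus not particular to the lower enzymes and the amino acid response genes. Glul deviated by 1.002, 0.749 and 0.948 in NF replicates 1 to 3, against -0.893, -0.840 and -0.967 in N replicates 1 to 3. In this probe set, 10374453, NF replicate 2 was again nearest to N and N replicate 3 farthest from NF, within a narrower spread. Its second probe set, 10350753, had NF replicate 1 nearest to N, at 6.08, against 6.29 and 6.47 in NF replicates 2 and 3. NF replicate 2 was the NF array nearest to N in the probe sets representing these genes, so each change was larger without it. The changes were then, on the log2 scale, 1.88 for Glul, -1.38 for Asns, -2.76 for Gpt2 and -1.33 for Got1. They were smaller without NF replicate 1, at 1.75 for Glul, -1.03 for Asns, -2.32 for Gpt2 and -0.98 for Got1.

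**Figure D4:**
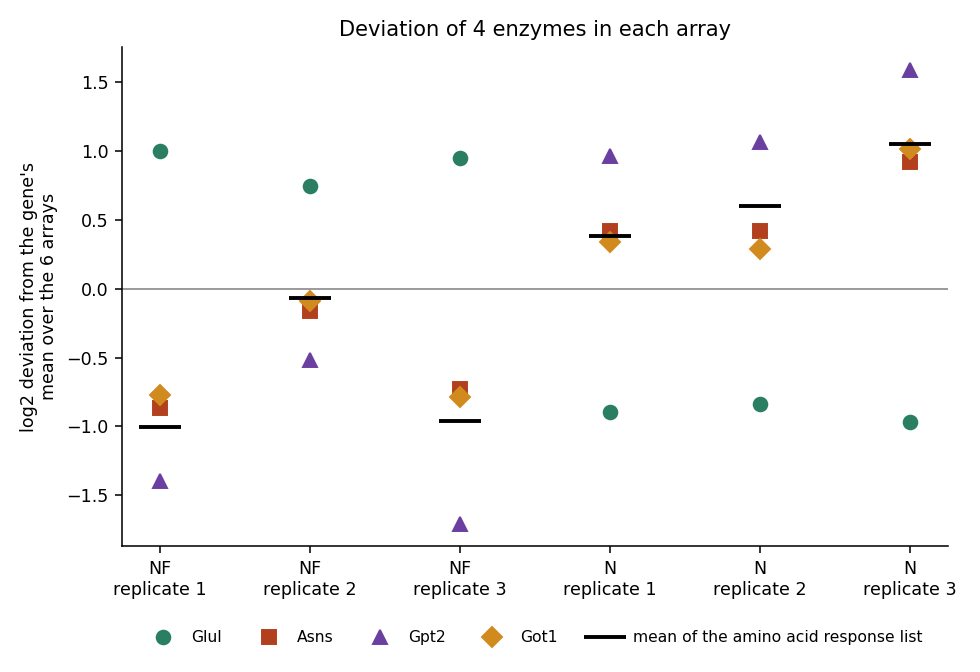
Log2 deviation of Glul, Asns, Gpt2 and Got1 from the gene's own 6-array mean (vertical axis), in the NF arrays (left) and the N arrays (right), with the mean of the 23 amino acid response genes as a black dash. Glul is shown by probe set 10374453. In NF, replicate 2 lies nearest to 0 for all 4 enzymes and for the list, at 0.749 for Glul and -0.07 for the list.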

How the data were processed

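The authors deposited log2 values from RMA, run in the R/Bioconductor package oligo (version not given in the sources used here). They took the annotation from ENSEMBL and discarded probe sets without an Entrez gene. Which arrays were normalized together is not stated. Each of the 6 columns is named by its sample, and 0 columns were left without one. Of 22035 probe sets, GEO's platform annotation pairs 18197 with 1 symbol, 1260 with several (none of them a member) and 2578 with none, and the 18197 were tested.

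The comparison of NF and N used limma 3.58.1 (lmFit, eBayes) under R 4.3.3, with Benjamini-Hochberg adjustment over all 18197 and a threshold of 0.05. Of several probe sets of a gene, the one with the lowest p stands for it, as in the study's methods. The members, the 8 lists and the alternatives were chosen with earlier results of these data known. Named are all members, the 4 genes with the lowest p of each list, and the 3 genes most like each member that passed. Atf4 was added after its values were seen. Same-numbered arrays of NF and N had correlations of deviations of -0.0748, -0.0780 and -0.0736, so the numbers were not taken as pairs. The fit was tested on simulated data. Promoter windows are from RefSeq's table on GRCm38.p6. The alternatives were a replicate block, quantile normalization, centring, a filter on dim probe sets, the probe set with the highest mean, limma's trend, robust and array weight options, the methods' t-test, and leaving out arrays. That t-test comes from the study's general statistics, and the study's own test of the arrays was limma.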

Additional observations from a re-analysis of the deposited data

How the results depend on the processing

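Over 16 alternatives, Glul kept a log2 change between 1.65 and 1.88 and passed in 13 (adjusted p from 0.000121 to 0.182), Gpt2 lay between -2.88 and -2.16 and passed in 13 (0.000894 to 0.282), and Asns lay between -1.46 and -1.002 and passed in 10 (0.00446 to 0.342). Got1, which missed the threshold with all arrays, lay between -1.43 and -0.86 and passed in 6 (0.0108 to 0.406), and Glud1 passed in 1. Got2 and Oat stayed positive and passed in 0 of the 16. Gpt turned from 0.05 to -0.000286 with array weights, -0.0115 without N replicate 1 and -0.0266 when NF replicate 2 was also left out, lay between -0.0115 and 0.0917 with single arrays left out, with adjusted p from 0.749 to 1.00 over its 15 alternatives, and was removed by the filter on dim probe sets. The cause of these differences was not tested.

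The methods' t-test with adjustment called 0 members higher and 0 lower (1 and 3 at an unadjusted p under 0.05), and 0 other pathway genes lower (26), with 1 gene higher and 0 lower (861) over all genes. With one array left out, the members called higher were between 0 and 1 and those called lower between 0 and 4, the other pathway genes called lower between 0 and 23, and all genes called between 1 and 492 higher and 0 and 430 lower. The counts of 0 arose without NF replicate 1 or NF replicate 3, where 1 member was higher and 3 were lower by limma's unadjusted p under 0.05, as were 541 and 606 genes lower over the whole table. With the replicate block, 1 member fell (Gpt2) in place of 2, since Asns had an adjusted p = 0.0905 from limma, 4 other pathway genes fell, and 63 genes rose and 17 fell over the whole table. In 0 of 3 replicate numbers was the array of the same number the best match, and the block changed no other member's call. After quantile normalization 1 other pathway gene rose and 24 fell, with 497 higher and 373 lower over all genes, where the fit without it gave 307 and 121. With array weights 2 rose and 27 fell, with 675 and 493 over all genes. With both N replicate 1 and NF replicate 2 left out, a choice taken from earlier results, 1 rose and 28 fell, with 541 and 497 over all genes. The number of arrays sets the width of the intervals given for each enzyme.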
